A study of Mus musculus with 9 samples.

Results

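The phagocyte NADPH oxidase genes Cybb, Cyba, Ncf1, Ncf4, Rac2 and Hvcn1 were followed in neutrophils sorted from mouse lung. The 6 genes were taken by symbol from the deposited gene tables, where they are 6 of 22064 listed genes and 6 of the 18325 genes with values. All 6 passed the filter on low counts and were tested among 14108 genes.

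The study sorted neutrophils by their surface Ly6G and sequenced their RNA in bulk, with 3 libraries in each of 3 groups. All mice were BALB/c females, their genotype is otherwise not described, and the age at sampling is not given in the labels. CD45+Ly6Ghigh and CD45+Ly6Glow neutrophils were sorted from the lungs of mice that carried 4T1-LM3 cells, a lung-tropic derivative of the 4T1 mouse mammary carcinoma line, injected into the mammary fat pad and left until macrometastases had formed. These groups are called Ly6Ghigh and Ly6Glow below, after the surface protein used in the sort. CD45+Ly6Ghigh neutrophils from the lungs of BALB/c female mice, with no injection named, served as the normal lung group (NL). The assignment of the NL libraries rests on their titles and treatment fields, since their other labels name the Ly6Ghigh group alone. Neither the labels nor the methods say whether a library held 1 mouse or pooled mice, so the p-values measure the spread between these libraries, which may be technical. The Ly6g transcript did not follow the names of the groups: it was at 361 to 380 CPM in Ly6Ghigh, 385 to 403 CPM in Ly6Glow and 118 to 120 CPM in the Ly6Ghigh neutrophils of normal lung (CPM is explained below), with a log2 fold change of 0.076 between the subsets (edgeR, adjusted p = 0.0577).

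The oxidase moves electrons from NADPH across a membrane onto oxygen and so makes superoxide, the start of the oxidative burst with which neutrophils kill microbes. At rest its parts are kept apart: a flavocytochrome sits in the membrane, organizing proteins wait in the cytosol, and a small GTPase is held inactive by an inhibitor. Stimulation brings these parts together at the membrane, and a voltage-gated proton channel carries out the charge that the electron flow would otherwise build up. Loss of a core subunit in humans causes chronic granulomatous disease.

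The libraries held between 15267177 and 17841807 estimated counts (median 16996574). Replicates of a group differed by more than counting noise (chi-square per degree of freedom 1.41 to 5.30), so none was a duplicate. The second NL library stood apart from the other two, with values of 5.30 and 4.05 where the other pair gave 1.49. Leaving it out kept all 6 oxidase genes called in both comparisons with NL, and their log2 fold changes moved by little (Cyba from 1.30 to 1.23 in Ly6Ghigh and from 0.91 to 0.83 in Ly6Glow). The summed level of 9 neutrophil markers was 71000 to 72800 CPM in Ly6Ghigh, 76300 to 78000 CPM in Ly6Glow and 18300 to 18500 CPM in NL, where CPM is the count scaled to a library size that was normalized by the trimmed mean of M-values (TMM). The NL libraries thus held a smaller share of these neutrophil transcripts, with none of the 9 markers at 0 in any group. In bulk RNA, fewer cells of a type and less RNA per cell cannot be told apart.

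In the comparison of the subsets, Cybb and Hvcn1 were lower in Ly6Glow than in Ly6Ghigh, whereas Ncf4 and Rac2 were at nearly equal levels and Cyba and Ncf1 lay between. Of the 6 genes, 0 were called higher and 2 were called lower in Ly6Glow, where a call needs an adjusted p no larger than 0.05 together with a log2 fold change beyond 0.58 in size. Of all 14108 genes, 9.29% were called higher and 15.9% lower. The libraries of the 2 subsets did not overlap for 5 of the 6 genes, against 62.1% of all genes. The median log2 fold change was -0.38 over the 6 genes and -0.041 over all genes. All adjusted p-values come from edgeR's quasi-likelihood test with Benjamini-Hochberg adjustment over all genes tested.

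Against NL, 5 of the 6 genes were called higher in Ly6Ghigh and 1, Hvcn1, was called lower. Of all genes, 26.3% were called higher and 36.6% lower in that comparison. In Ly6Glow, 4 were called higher than in NL and 2, Cybb and Hvcn1, were called lower, beside 28.7% and 40.8% of all genes. None of the 6 genes overlapped between groups in either comparison with NL, where 85.2% and 86.8% of all genes did not overlap. The median log2 fold change of the 6 genes was 1.4 in Ly6Ghigh and 1.2 in Ly6Glow, beside -0.0879 and -0.156 for all genes. Each group enters 2 of the 3 comparisons, so that these are not independent of each other.

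**Figure D1:**
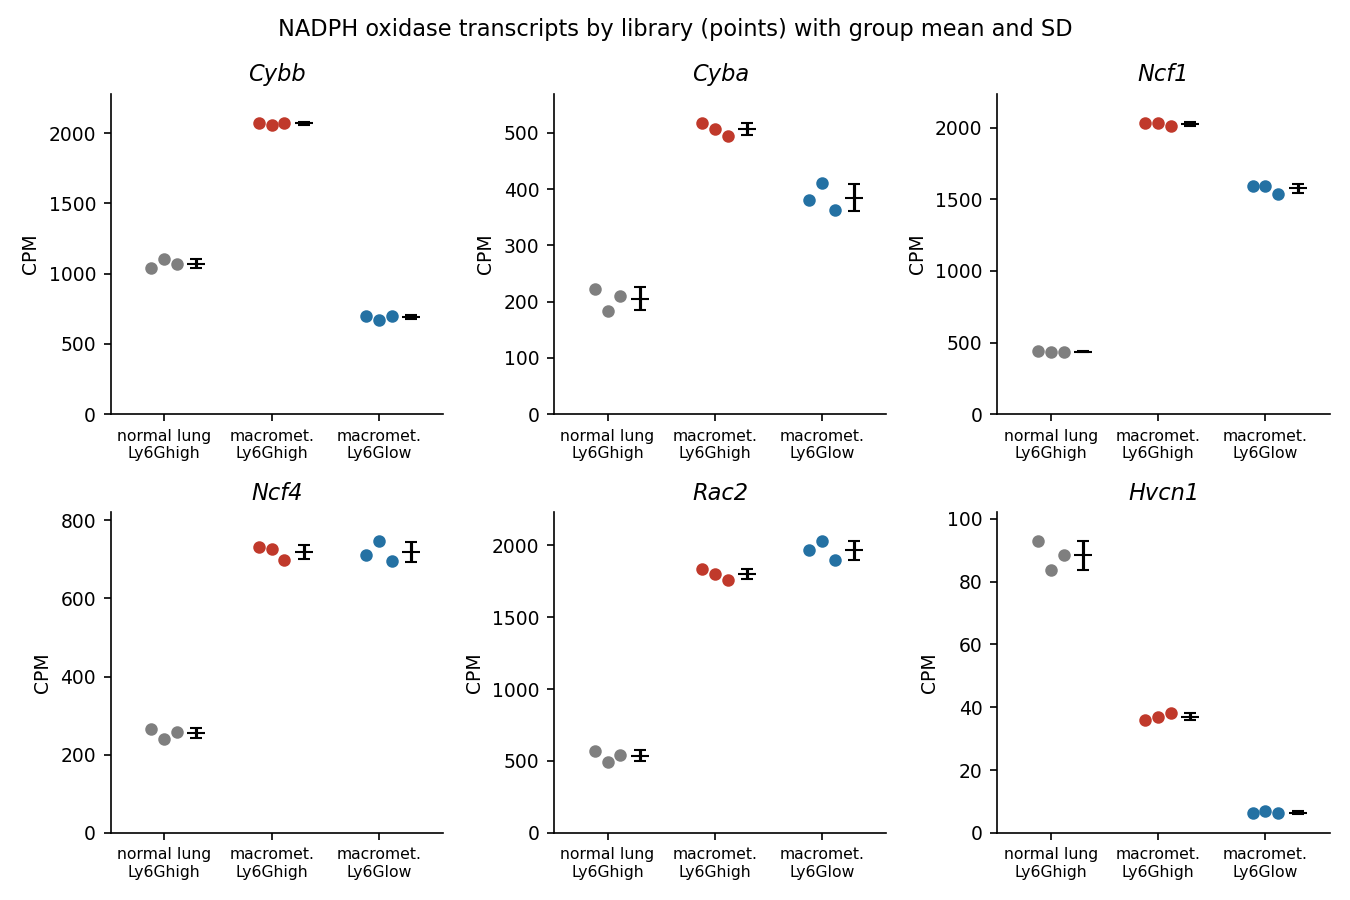
CPM of the 6 oxidase genes in each library (points, linear axes from 0), with the mean and SD of the 3 libraries of a group beside them. Cybb was highest in Ly6Ghigh and lowest in Ly6Glow, Ncf4 and Rac2 were alike in the macrometastatic subsets, and Hvcn1 was highest in NL and lowest in Ly6Glow.

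Cybb (NCBI Gene 13058) encodes gp91phox, the catalytic subunit of the flavocytochrome, which carries the electrons across the membrane. It lies on the minus strand of chromosome X (9435252 to 9487771, GRCm38), with 13 exons in transcript Cybb-201. Cybb was measured at 2074, 2059 and 2074 CPM in the Ly6Ghigh libraries. It stood at 696, 672.7 and 699.7 CPM in Ly6Glow. In NL it was at 1039, 1102 and 1070 CPM. The groups did not overlap, and the order was Ly6Ghigh, NL, Ly6Glow, with NL in the middle. The level in Ly6Glow (689 ± 14.6 CPM, SD, n = 3) was 3.00-fold below that in Ly6Ghigh (2069 ± 8.61 CPM), a log2 fold change of -1.59 ± 0.031 (SE; adjusted p = 4.54e-20). Relative to NL (1070 ± 31.3 CPM), Cybb rose 1.93-fold in Ly6Ghigh (log2 fold change 0.95 ± 0.030, adjusted p = 6.8e-18). In Ly6Glow it was 1.55-fold lower than in NL (log2 fold change -0.63 ± 0.030, adjusted p = 1.05e-14), which lies just past the fold threshold and was not called with DESeq2 (-0.54), while library totals gave -1.34. The rise over NL in Ly6Ghigh was not called when libraries were scaled by their totals (0.49). It was not called with limma on log2(FPKM + 0.1) either (0.49, FPKM is explained below). Cybb was the only 1 of the 6 genes whose fold changes against NL had opposite signs in the macrometastatic subsets.

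Cyba (NCBI Gene 13057) encodes p22phox, which pairs with gp91phox, stabilizes it in the membrane and offers the docking site for the cytosolic organizer. It lies on the minus strand of chromosome 8 (122424776 to 122432930), with 6 exons in Cyba-201, inside the span of Gm20388 on the opposite strand. Cyba was at 518.1, 507 and 495.2 CPM in Ly6Ghigh. It was at 381.3, 410.4 and 362.2 CPM in Ly6Glow. The NL libraries had 222.6, 182.7 and 210.6 CPM. The groups did not overlap, and the second NL library was the lowest of all 9. Between the subsets the log2 fold change was -0.40 ± 0.053 (adjusted p = 1.21e-06), within the fold threshold, so that Cyba was not called there. It passed the threshold with library totals in place of TMM (-0.63). Relative to NL, Cyba rose 2.47-fold in Ly6Ghigh (log2 fold change 1.30 ± 0.053, adjusted p = 8.59e-16) and 1.87-fold in Ly6Glow (0.91 ± 0.054, adjusted p = 6.46e-13). The rise in Ly6Glow fell below the threshold with library totals (0.21) and with limma on log2(FPKM + 0.1) (0.21).

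Ncf1 (NCBI Gene 17969) encodes p47phox, the organizer that is phosphorylated on stimulation and carries the cytosolic complex to p22phox. It lies on the minus strand of chromosome 5 (134220053 to 134229625), with 11 exons in Ncf1-201, and shares 4303 bases with Gtf2ird2 on the opposite strand. Ncf1 was at 2033, 2034 and 2011 CPM in Ly6Ghigh. It was at 1595, 1593 and 1538 CPM in Ly6Glow. In NL it was at 439.1, 434.7 and 432.8 CPM. The macrometastatic libraries were all well above the NL libraries, and the groups did not overlap. Ncf1 had the largest rise of the 6 genes in Ly6Ghigh, 4.65-fold over NL (log2 fold change 2.22 ± 0.029, adjusted p = 4.75e-24), at the 98.7th percentile of all fold changes in that comparison. It rose 3.62-fold in Ly6Glow (1.85 ± 0.029, adjusted p = 5.44e-23). Between the subsets its log2 fold change of -0.36 ± 0.028 (adjusted p = 2.31e-10) was within the fold threshold and passed it with library totals (-0.60).

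RefSeq promoter sequences on GRCm38.p6 were matched for 3 of the 6 genes, Cybb, Cyba and Ncf1. The 250 bases before each start are shown because these genes of the core complex stood in different proportions in the 3 groups. They are written 5′ to 3′ on the gene's own strand, from chrX:9469325-9469574 (minus strand) for Cybb, which ends at the start of transcript Cybb-201 (9435252 to 9469324) and lies inside the longer gene span given above, chr8:122432941-122433190 (minus strand) for Cyba and chr5:134229626-134229875 (minus strand) for Ncf1. Capitals mark matches to TGANTCA, a pattern that takes any base at its centre (A in the Cybb match), and CCAAT, the CCAAT-box core.
Cybb: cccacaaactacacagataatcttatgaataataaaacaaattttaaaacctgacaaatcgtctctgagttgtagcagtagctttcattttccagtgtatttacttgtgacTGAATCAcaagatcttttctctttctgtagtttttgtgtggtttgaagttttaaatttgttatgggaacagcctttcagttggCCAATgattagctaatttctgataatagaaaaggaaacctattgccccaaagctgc
Cyba: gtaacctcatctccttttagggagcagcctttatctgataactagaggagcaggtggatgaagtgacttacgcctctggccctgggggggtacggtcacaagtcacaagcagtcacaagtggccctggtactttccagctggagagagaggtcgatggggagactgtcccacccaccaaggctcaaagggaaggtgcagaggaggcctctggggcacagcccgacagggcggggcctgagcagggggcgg
Ncf1: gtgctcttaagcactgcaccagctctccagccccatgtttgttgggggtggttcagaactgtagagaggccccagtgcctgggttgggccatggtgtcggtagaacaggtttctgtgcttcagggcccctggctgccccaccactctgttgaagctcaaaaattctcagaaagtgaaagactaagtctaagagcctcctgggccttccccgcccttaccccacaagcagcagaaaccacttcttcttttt
The 3 motifs GAGGAA (a core bound by the myeloid factor PU.1), TGANTCA and CCAAT were searched on both strands from 250 bases before to 50 bases after the start. In Cybb, TGANTCA matched from -139 to -133 on both strands, CCAAT matched from -56 to -52, and GAGGAA matched on the opposite strand from 10 to 15 after the start, outside the printed bases. These matches did not overlap each other. The Cyba and Ncf1 windows held no match of these 3 motifs. Of 32851 promoter windows of the same length, 28.3% held GAGGAA, 7.81% TGANTCA and 37.4% CCAAT. The matches describe the sequence alone.

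Ncf4 (NCBI Gene 17972) encodes p40phox, a cytosolic partner that binds phosphatidylinositol 3-phosphate and holds the oxidase on phagosomes. It lies on the plus strand of chromosome 15 (78244801 to 78262580), with 10 exons in Ncf4-201. Ncf4 was at 730.3, 727.6 and 698.6 CPM in Ly6Ghigh. It was at 711.1, 746.5 and 696.8 CPM in Ly6Glow. In NL it was at 264.7, 241.3 and 258.6 CPM. The macrometastatic subsets overlapped, and both lay above every NL library. Between the subsets the log2 fold change was -0.0014 ± 0.037 (adjusted p = 0.978), with a 95% interval from -0.0775 to 0.0746. Its sign turned under other scalings (0.064 with DESeq2's size factors). Relative to NL, Ncf4 rose 2.82-fold in Ly6Ghigh (1.50 ± 0.038, adjusted p = 1.63e-19) and 2.82-fold in Ly6Glow (1.49 ± 0.038, adjusted p = 1.44e-19).

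Rac2 (NCBI Gene 19354) encodes the small GTPase, largely restricted to blood cells, that switches on the assembled oxidase. It lies on the minus strand of chromosome 15 (78559167 to 78572783), with 7 exons in Rac2-201. Rac2 was at 1838, 1804 and 1763 CPM in Ly6Ghigh. It was at 1971, 2030 and 1900 CPM in Ly6Glow. In NL it was at 572.4, 496.1 and 539.6 CPM. Each Ly6Glow library was above each Ly6Ghigh library, and NL was the lowest. The log2 fold change between the subsets was 0.13 ± 0.039 (adjusted p = 0.00931), within the fold threshold, and its sign turned with library totals (-0.11). Relative to NL, Rac2 rose 3.36-fold in Ly6Ghigh (1.75 ± 0.041, adjusted p = 4.66e-20) and 3.67-fold in Ly6Glow (1.88 ± 0.041, adjusted p = 1.24e-20), the largest rise of the 6 genes in Ly6Glow.

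Hvcn1 (NCBI Gene 74096) encodes the voltage-gated proton channel Hv1, found in phagocytes and B cells among others, which keeps the membrane charge and the pH in check while the oxidase works. It lies on the plus strand of chromosome 5 (122206804 to 122242297), with 8 exons in Hvcn1-201, and shares 4450 bases with Tctn1 on the opposite strand. Hvcn1 was at 35.92, 36.78 and 38.07 CPM in Ly6Ghigh. It was at 6.17, 6.85 and 6.33 CPM in Ly6Glow, from 76.4 to 91.0 estimated counts. In NL it was at 92.92, 83.86 and 88.42 CPM. The groups did not overlap, and the order in CPM from NL over Ly6Ghigh to Ly6Glow was that of no other of the 6 genes. The level in Ly6Glow was 5.71-fold below that in Ly6Ghigh (log2 fold change -2.51 ± 0.083, adjusted p = 1.97e-16) and 13.7-fold below that in NL (-3.77 ± 0.073, adjusted p = 1.63e-21). In Ly6Ghigh it was 2.39-fold below NL (-1.26 ± 0.050, adjusted p = 5.89e-16). Hvcn1 kept its direction under every alternative tried and its calls under every alternative that carries a test.

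**Figure D2:**
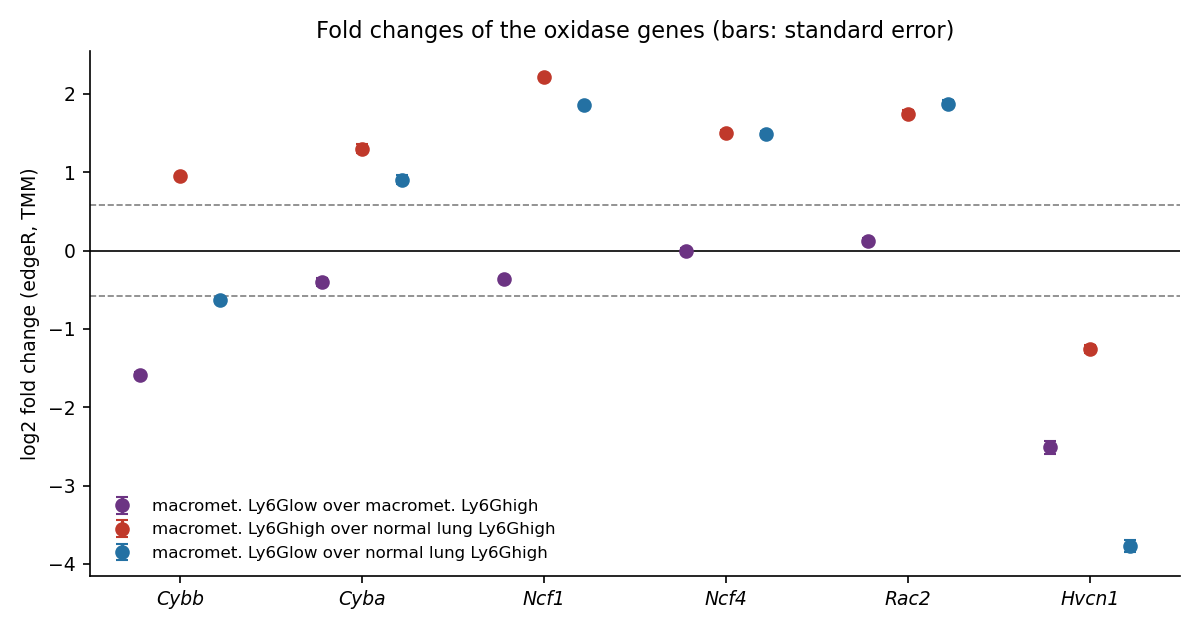
Log2 fold changes (edgeR, TMM) of the 6 oxidase genes in the 3 comparisons, with standard errors as bars and the fold threshold of 0.58 as dashed lines. Cyba, Ncf1, Ncf4 and Rac2 lie above the threshold against NL and within it between the subsets, while Cybb and Hvcn1 lie below it in Ly6Glow against both other groups.

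Summed markers of alveolar macrophages, of monocytes and macrophages, and of T and NK cells (given below) stood in the same order over the groups as Hvcn1. Single genes weighed heavily in the latter 2 sums. Between the subsets, Mrc1 differed most among the monocyte and macrophage markers (119 CPM in Ly6Ghigh, 28.6 CPM in Ly6Glow). Csf1r alone of that list was higher in Ly6Glow (299 against 217 CPM). Of 6 T and NK cell markers tested, 2 were called lower in Ly6Glow than in Ly6Ghigh. Cd3d, 1 of these, was at 24.6, 15.1 and 17.2 CPM in Ly6Ghigh, Ly6Glow and NL. The eosinophil sum was higher in NL than in Ly6Glow, as Cybb was, through Siglecf alone (38.7 CPM in NL and 29.5 CPM in Ly6Glow). The other eosinophil markers, Epx, Prg2, Ear6, Ccr3 and Il5ra, each had a lower mean in NL than in Ly6Glow. Summed B cell markers were highest in Ly6Ghigh and overlapped between Ly6Glow and NL. The summed level of 12 alveolar macrophage markers was 313 to 328 CPM in Ly6Ghigh, 76.5 to 83.8 CPM in Ly6Glow and 1050 to 1090 CPM in NL, with no marker at 0. Of these 12 markers, 10 were called lower in Ly6Glow than in Ly6Ghigh, 11 were called lower in Ly6Ghigh than in NL and 12 were called lower in Ly6Glow than in NL. Of all genes, 15.9%, 36.6% and 40.8% were called lower in these comparisons, and 9.29%, 26.3% and 28.7% higher. These shares stand behind the marker counts that follow as well. The peroxisome proliferator-activated receptor gene Pparg, which alveolar macrophages need, had 5.57 ± 0.573, 0.925 ± 0.199 and 25.9 ± 1.83 CPM in Ly6Ghigh, Ly6Glow and NL, and the scavenger receptor gene Marco had 0.829 ± 0.105, 0.541 ± 0.0577 and 15.8 ± 1.20 CPM. Marco was not called between the subsets (log2 fold change -0.61, edgeR adjusted p = 0.16). The 10 monocyte and macrophage markers summed to 596 to 609, 505 to 524 and 1000 to 1020 CPM, and 3, 6 and 7 of them were called lower in the same comparisons, with 1 called higher in each comparison with NL. Eosinophil markers (6 in the table of 7 listed) summed to 110 to 118, 36.2 to 37.9 and 40.6 to 43.3 CPM, and of the 6 tested, 5 were called lower in Ly6Glow than in Ly6Ghigh, 5 higher in Ly6Ghigh than in NL and 3 higher in Ly6Glow than in NL. B cell markers (5 in the table of 6 listed) summed to 46.3 to 47.3, 28.1 to 30 and 27.4 to 29.9 CPM, and of the 5 tested, 5 were called lower in Ly6Glow than in Ly6Ghigh, 3 higher in Ly6Ghigh than in NL and 1 higher in Ly6Glow than in NL. The part of these cells in the levels of Hvcn1 and Cybb was not tested.

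Among the genes whose profile over the 9 libraries was most like that of Hvcn1 were Mrc1, the macrophage mannose receptor (root mean square difference of centred log2 CPM 0.262), and Slc7a2 (0.493), out of 3346 candidates with a mean of at least 50 CPM. Mrc1 had 119 ± 1.98 CPM in Ly6Ghigh, 28.6 ± 0.292 CPM in Ly6Glow and 428 ± 14.4 CPM in NL. It is also 1 of the monocyte and macrophage markers above. For Cybb the nearest were the metalloprotease gene Zmpste24 (0.141), Golim4 (0.218) and Spn (0.233), which encodes the leukocyte sialoglycoprotein CD43. The other members had closer neighbours: Zfp710 and Rbm38 for Cyba (0.0643 and 0.0663), Map3k9, Pram1 and Flot2 for Ncf1 (0.0492 to 0.0703), Mocs1, Capn1 and Tsc22d3 for Ncf4 (0.0246 to 0.0332) and Sirt7, Plp2 and Dedd2 for Rac2 (0.0253 to 0.0361). Among the 6 genes themselves, Ncf4 and Rac2 had the most similar profiles (0.160) and Ncf1 and Hvcn1 the least similar (2.31).

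Compared with NL, the macrometastatic libraries differed in more than the oxidase. All 9 neutrophil markers were called higher in both subsets than in NL, and 4 were called higher in Ly6Glow than in Ly6Ghigh. Markers of early granules (5 genes) summed to 89.8 to 91 CPM in Ly6Ghigh, 16.2 to 18.4 CPM in Ly6Glow and 2.97 to 4.18 CPM in NL, and all 5 were called in each comparison. Secondary granule markers (6 genes) summed to 35600 to 36400, 12900 to 13400 and 6340 to 6620 CPM, with 5 called lower in Ly6Glow than in Ly6Ghigh. Markers of structural lung cells were higher in NL, and all were called lower in both subsets than in NL. Epithelial markers (6 genes) summed to 79.9 to 85.9, 77.3 to 82.2 and 1030 to 1160 CPM. Most of their sum in NL came from Sftpc (789 CPM) and Sftpb (195 CPM). Endothelial markers (5 genes) summed to 132 to 135, 162 to 171 and 844 to 919 CPM. Fibroblast markers (5 genes) summed to 49.4 to 57, 51.5 to 57.6 and 514 to 545 CPM. T and NK cell markers (7 genes) summed to 41.9 to 43.3, 30.1 to 30.5 and 64.2 to 66.8 CPM, dendritic cell markers (6 genes) to 11.5 to 13.2, 11 to 11.5 and 37.3 to 40.3 CPM, and basophil and mast cell markers (6 genes) to 40.2 to 42.2, 22.5 to 26.9 and 25.6 to 28.1 CPM. No marker of any list was at 0 in all libraries of a group. The part of these cells and of neutrophil maturation in the oxidase fold changes was not tested.

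**Figure D3:**
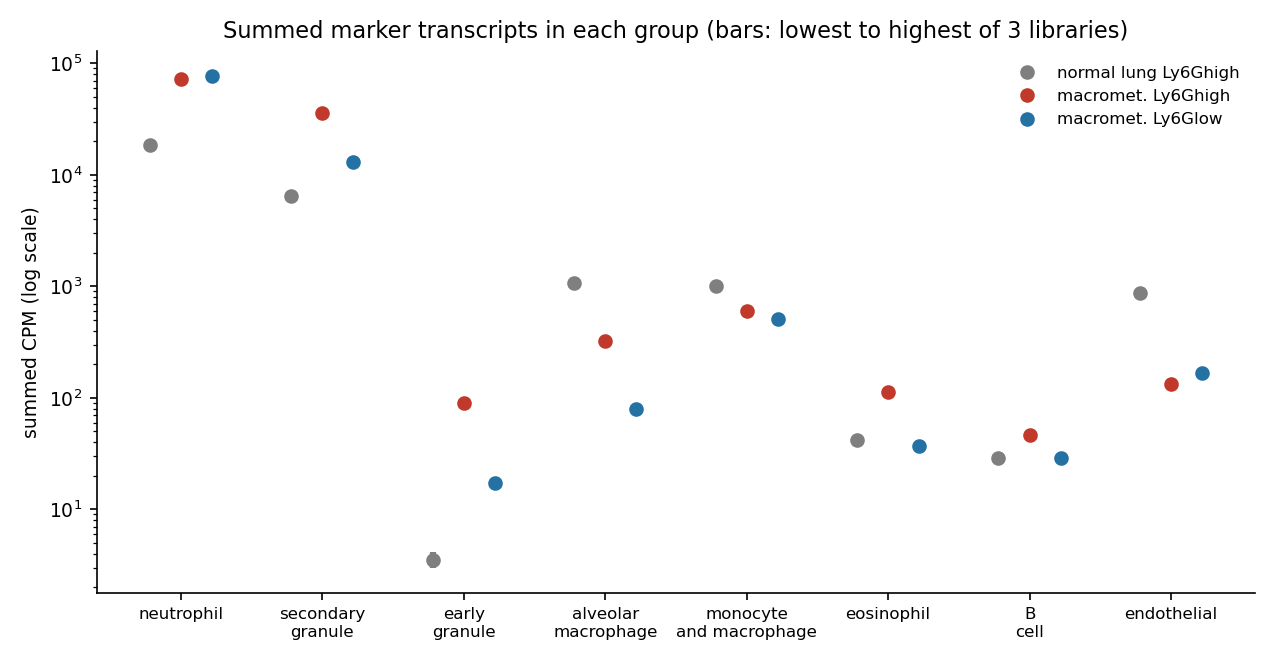
Summed CPM of marker genes for 8 of the 13 cell type lists in each group (log scale), where bars span the 3 libraries and points mark the geometric midpoint of their range. Neutrophil markers were lowest in NL, and alveolar macrophage markers were highest in NL (1050 to 1090 CPM) and lowest in Ly6Glow (76.5 to 83.8 CPM).

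Because neutrophil markers differed between groups, the oxidase genes were also expressed per 1000 CPM of the 9 neutrophil markers, a scale that was chosen after seeing the data and carries no test. On this scale Cybb was at 28.8 ± 0.288 in Ly6Ghigh, 8.91 ± 0.257 in Ly6Glow and 58.2 ± 1.60 in NL (SD, n = 3). Ncf1 was at 28.2 ± 0.391, 20.4 ± 0.588 and 23.7 ± 0.179, and Rac2 at 25.1 ± 0.431, 25.4 ± 0.895 and 29.1 ± 2.17. Ncf1 alone was then above NL in Ly6Ghigh, while Cybb, Cyba, Ncf4 and Rac2, which rose over NL in CPM, were below it. Cyba was at 7.06 ± 0.128, 4.97 ± 0.308 and 11.2 ± 1.15, and Ncf4 at 10.0 ± 0.253, 9.28 ± 0.317 and 13.9 ± 0.720. Hvcn1 kept its order, at 0.514 ± 0.0192, 0.0833 ± 0.0039 and 4.81 ± 0.259. S100a8 and S100a9 made up 64.9% to 77.1% of the marker sum, and without them Ncf1, Ncf4 and Rac2 had means above NL in Ly6Ghigh and all 6 genes had means below NL in Ly6Glow. Since this scale shifts all genes of a comparison by the same amount, genes that rose less than the markers come to lie below NL. Ncf1 in Ly6Ghigh was above NL on both marker scales, and Cybb and Hvcn1 were lower in Ly6Glow than in Ly6Ghigh on each scale.

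**Figure D4:**
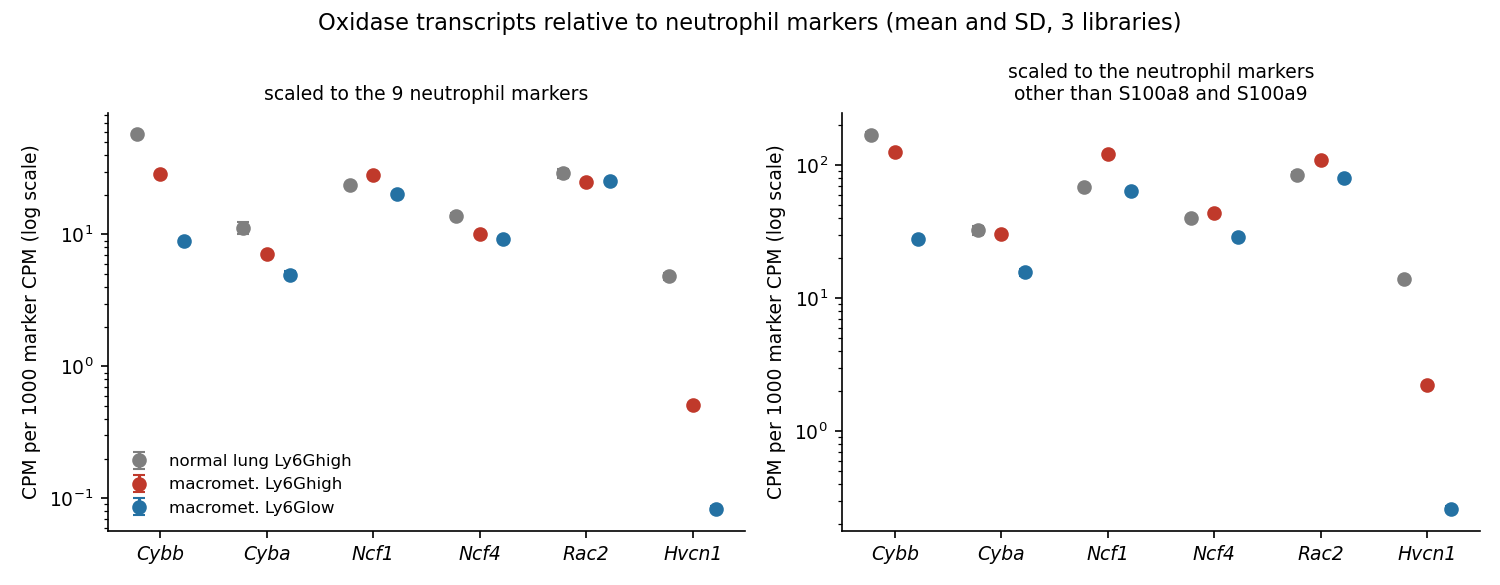
Oxidase transcripts per 1000 CPM of neutrophil markers (log scale, mean and SD of 3 libraries), with all 9 markers on the left and without S100a8 and S100a9 on the right. Cybb and Hvcn1 are highest in NL and lowest in Ly6Glow in both panels, whereas Rac2 in Ly6Ghigh is below NL on the left (25.1 against 29.1) and above it on the right (109 against 84.3).

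Levels of different genes were compared by FPKM (fragment numbers scaled to library depth and to the length of the transcript), as deposited. In Ly6Ghigh the order was Ncf1 (718 ± 3.81 FPKM), Cyba (678 ± 13.4), Rac2 (572 ± 10.6), Ncf4 (494 ± 11.4), Cybb (417 ± 1.68) and Hvcn1 (13.2 ± 0.401), and no neighbours in this order overlapped. In Ly6Glow, Rac2 came first (530 ± 16.4 FPKM), followed by Ncf1 (474 ± 9.39), Cyba (437 ± 26.6) and Ncf4 (420 ± 12.5), with Ncf1 and Cyba overlapping and Cyba and Ncf4 overlapping, and then by Cybb (118 ± 2.79) and Hvcn1 (1.97 ± 0.142). In NL, Cyba (379 ± 34.2 FPKM) and Cybb (298 ± 11.7) came first, followed by Ncf4 (240 ± 9.14) and Rac2 (235 ± 14.5), which overlapped, and by Ncf1 (213 ± 1.75) and Hvcn1 (43.5 ± 1.75). Cybb thus came directly after Cyba in NL and directly before Hvcn1, the lowest, in both macrometastatic subsets. Among all 18325 genes with values, Cybb ranked 164 in Ly6Ghigh, 629 in Ly6Glow and 219 in NL by mean FPKM, and Hvcn1 ranked 3917, 7527 and 1596.

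Ratios of FPKM within a library do not depend on how libraries are scaled. The ratio of Cybb to its partner Cyba was 0.604, 0.613 and 0.631 in Ly6Ghigh, 0.275, 0.247 and 0.291 in Ly6Glow and 0.704, 0.910 and 0.766 in NL. The groups did not overlap, and the mean log2 ratio in Ly6Glow was 1.19 below that in Ly6Ghigh and 1.54 below that in NL. The ratio of Cybb to Ncf1 was 0.576 to 0.587 in Ly6Ghigh, 0.240 to 0.259 in Ly6Glow and 1.35 to 1.44 in NL. Cybb transcripts were thus above those of Ncf1 in NL alone. The ratio of Ncf1 to Ncf4 was 1.44 to 1.48 in Ly6Ghigh, 1.10 to 1.16 in Ly6Glow and 0.858 to 0.933 in NL. Rac2 was set against Rac1, the widely expressed Rac GTPase, and exceeded it in every library, by 3.41 to 3.53 times in Ly6Ghigh, 2.97 to 2.98 times in Ly6Glow and 1.49 to 1.73 times in NL. Each of the 12 differences in mean log2 ratio gave p = 0.1 (exact two-sided permutation test, adjusted p = 0.1 over the 3 comparisons of a ratio), the smallest that 3 libraries against 3 allow, so none could pass 0.05.

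**Figure D5:**
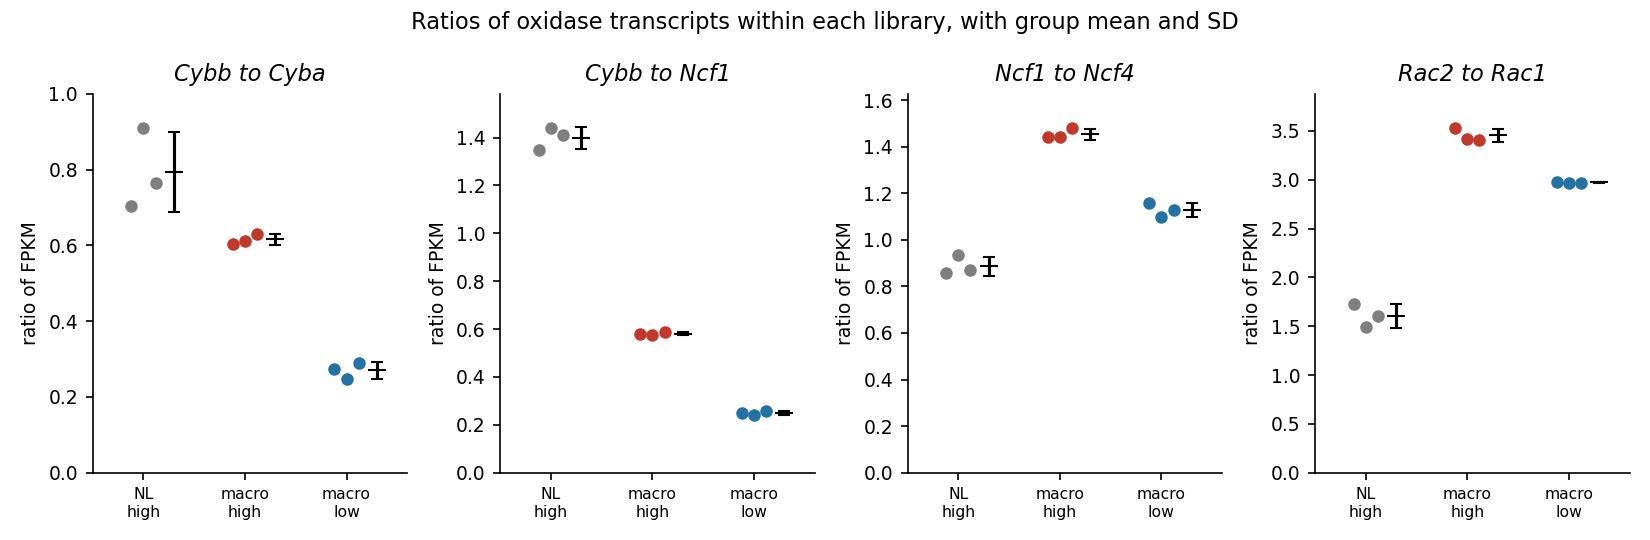
Ratios of FPKM between oxidase genes within each library (points, linear axes from 0), with group mean and SD. NL high is normal lung Ly6Ghigh, and macro high and macro low are the macrometastatic subsets; the ratio of Cybb to Ncf1 exceeds 1 in NL alone, and none of the 4 ratios overlaps between groups.

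The remaining genes of the pathway were read from 7 lists of 71 genes, of which 70 were in the table and 63 were tested. Between the subsets, 4 were called higher and 10 lower in Ly6Glow (6.35% and 15.9% of those tested), beside 9.29% and 15.9% of all genes. The median log2 fold change was 0.0668, beside -0.041 over all genes. Relative to NL, 34 were called higher and 11 lower in Ly6Ghigh (54.0% and 17.5%, median 0.642), beside 26.3% and 36.6% of all genes. In Ly6Glow 38 were called higher and 13 lower than in NL (60.3% and 20.6%, median 0.806), beside 28.7% and 40.8% of all genes. The shares over all genes stand behind the counts of each list below as well. Without the second NL library, 44 and 49 were called in these comparisons. Neutrophil marker sums, which differed in the same direction against NL, stand above, and their part was not tested.

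Oxidase partners outside the 6 genes formed a list of 5, among them Cybc1 (the chaperone of the flavocytochrome) and the small GTPases Rac1, Rap1a and Rap1b. Of these 5, 0 were called in either direction between the subsets, 4 were called higher in Ly6Ghigh than in NL, and 5 in Ly6Glow than in NL. Cybc1, at 107 ± 4.01, 141 ± 2.45 and 45.1 ± 0.471 CPM, was highest in Ly6Glow, with a log2 fold change of 0.39 ± 0.040 between the subsets (adjusted p = 2.25e-08), where Cybb was lowest. It rose over NL by 1.25 ± 0.042 on the log2 scale in Ly6Ghigh and by 1.65 ± 0.042 in Ly6Glow (adjusted p = 2.98e-17 and 1.96e-19). Rap1a rose over NL by 1.03 in Ly6Ghigh and by 1.08 in Ly6Glow, and Rap1b by 0.68 and 1.11.

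Of 9 other NOX and DUOX family genes, which serve mostly epithelial and vascular cells, 8 were in the table and 2 were tested. Nox4 was lower in both subsets (2.15 ± 0.241 CPM in Ly6Ghigh and 2.10 ± 0.601 CPM in Ly6Glow) than in NL (14.1 ± 1.53 CPM), with log2 fold changes of -2.71 and -2.74. The epithelial, endothelial and fibroblast markers given above were higher in NL as well. By FPKM, Nox4 was at 0.543 in Ly6Ghigh, 0.457 in Ly6Glow and 4.95 in NL, far below Cybb (118 to 417 FPKM as a mean).

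Regulators of Rac comprised 12 genes, of which 0 were called higher and 2 lower in Ly6Glow than in Ly6Ghigh (16.7% lower, beside the 15.9% of all genes), 7 higher and 1 lower in Ly6Ghigh than in NL, and 8 higher and 1 lower in Ly6Glow than in NL. The exchange factor gene Tiam1 was lower in Ly6Glow than in Ly6Ghigh (log2 fold change -0.98 ± 0.062). Arhgdib, the blood cell RhoGDI that keeps Rac2 in the cytosol, rose over NL by 1.95 in Ly6Ghigh and by 1.43 in Ly6Glow, and the GTPase-activating Arhgap25 by 1.56 and 1.76. Vav2, an exchange factor of wide expression, was lower than in NL in both subsets (-2.09 and -3.22).

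Kinases and lipid enzymes upstream of assembly comprised 22 genes. Of these, 1 was called higher and 3 lower in Ly6Glow than in Ly6Ghigh (4.55% and 13.6%, beside the 9.29% and 15.9% of all genes), 16 higher and 2 lower in Ly6Ghigh than in NL, and 17 higher and 3 lower in Ly6Glow than in NL. Syk, the kinase downstream of Fc receptors and integrins, was at 1435 CPM in Ly6Glow and 949 CPM in Ly6Ghigh (log2 fold change 0.60 ± 0.030, adjusted p = 2.28e-13). Pla2g4a, whose product releases arachidonic acid, fell by 1.08 on the log2 scale in Ly6Glow relative to Ly6Ghigh and by 0.69 relative to NL. Irak4 rose over NL by 1.60 in Ly6Ghigh and by 1.71 in Ly6Glow, Pik3cg by 1.36 and 1.30, and Prkcb, a kinase of p47phox, by 1.29 and 1.42. Prkca was lower than in NL (-1.75 and -3.00).

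Among 5 charge and ion partners of the channel, 1 was called higher and 1 lower between the subsets, and 1 higher and 2 lower in each comparison with NL. Trpm2, a calcium-permeable cation channel opened by oxidants through ADP-ribose, was at 103 ± 3.73 CPM in Ly6Ghigh, 225 ± 6.05 CPM in Ly6Glow and 338 ± 18.2 CPM in NL. It rose in Ly6Glow relative to Ly6Ghigh (log2 fold change 1.13 ± 0.044, adjusted p = 2.97e-15), where Hvcn1 fell. The proton pump subunit gene Atp6v0a1 rose over NL by 1.35 in Ly6Ghigh and by 1.61 in Ly6Glow.

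Of 9 genes that handle superoxide and peroxide, 0 were called higher and 3 lower in Ly6Glow than in Ly6Ghigh. Relative to NL, 3 were called higher and 3 lower in Ly6Ghigh, and 3 higher and 4 lower in Ly6Glow. Mpo, the granule enzyme that makes hypochlorous acid and a marker of early granules, was at 28.8 CPM in Ly6Ghigh, 6.74 CPM in Ly6Glow and 2.15 CPM in NL (log2 fold change -2.09 between the subsets). The glutathione peroxidase gene Gpx1 rose over NL by 1.84 in Ly6Ghigh and by 1.78 in Ly6Glow, and Prdx5 by 1.52 and 1.77. The peroxiredoxin gene Prdx1 was lower in Ly6Glow than in Ly6Ghigh (-0.89) and than in NL (-2.23), and lower in Ly6Ghigh than in NL (-1.34). Sod3, the extracellular superoxide dismutase, was lower than in NL in both subsets (-3.02 and -3.22).

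The last list held 9 transcription factors known to act on the Cybb promoter, of which 8 were tested. Between the subsets 2 were called higher and 1 lower in Ly6Glow, and relative to NL 3 higher and 1 lower in Ly6Ghigh and 4 higher and 1 lower in Ly6Glow. Spi1, which encodes PU.1, was at 662 CPM in Ly6Ghigh, 785 CPM in Ly6Glow and 327 CPM in NL, and so did not follow the order of Cybb. It rose over NL by 1.02 and 1.26, as did Cux1, a repressor, by 1.16 and 1.62. Irf1 (0.68) and Rela (0.67) were higher in Ly6Glow than in Ly6Ghigh. Irf8, the interferon regulatory factor of monocytes and macrophages, was at 23.9 ± 0.495 CPM in Ly6Ghigh, 12.3 ± 0.935 CPM in Ly6Glow and 120 ± 5.73 CPM in NL. It was lower in Ly6Glow than in Ly6Ghigh (-0.96 ± 0.079, adjusted p = 8.08e-10) and lower than in NL in both subsets (-2.33 and -3.28), in the order that Hvcn1 and the alveolar macrophage markers also showed.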

How the data were processed

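RNA of 9 libraries of sorted lung neutrophils, 3 for each of 3 groups, was sequenced by BGI after poly(A) selection and dUTP strand marking. The authors deposited an estimated count and an FPKM value for each gene and library. The estimated counts were deposited without normalization, and the FPKM values were normalized by the authors for transcript length and fragment number. The build mm10 is named in the submitters' processing notes. The aligner, the counting program and its strand setting are not given in the sources used here, so the counts of Cyba, Ncf1 and Hvcn1, which overlap genes on the opposite strand, are uncertain to that extent. Of the estimated counts, 37.9% were whole, and all were rounded. Of 22064 genes, 3739 were blank. Total counts of 15267177 to 17841807 per library set the precision.

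Counts were tested in R 4.3.3 with edgeR 4.0.16 (filterByExpr, TMM, quasi-likelihood F test, a single model of the 3 groups over all libraries), which took 14108 genes, with Benjamini-Hochberg adjustment. Calls needed an adjusted p no larger than 0.05 together with a log2 fold change beyond 0.58 in size, the fold threshold of the study's methods. The SE is the absolute log2 fold change divided by the square root of F. Likeness is the root mean square difference of log2 CPM (prior count 2), each gene centred on its mean. Positions are from GENCODE vM21 and promoter sequences from RefSeq. The members and all lists (7 pathway and 13 cell type lists) were chosen with earlier results of these data known. Named genes are the 6 members, the genes most like each (3 by rule), and for each pathway list up to 2 largest rises and 2 largest falls among called genes with at least 10 CPM in the higher group; Pparg and Marco were named beyond that rule. A few genes that the rule names are not reported here. Alternatives used DESeq2 1.42.0, limma 3.58.1 on log2 FPKM, other scalings, filters and thresholds, and left-out libraries.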

Additional observations from a re-analysis of the deposited data

How the results depend on the processing

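Of 9 same-numbered pairs of libraries, 0 had a correlation of deviations above 0.1 (-0.252 to 0.0964). Only pairs of Ly6Ghigh with Ly6Glow could share mice, and theirs were -0.0469, -0.0285 and 0.0386. With so few libraries this cannot settle whether both subsets came from the same lungs, which is not stated. A replicate block by library number was fitted over all 9 libraries. It thus also tied each NL library to the same-numbered macrometastatic libraries and is not a pairing of the subsets alone. With this block, 1294 genes were called higher and 2228 lower in Ly6Glow against Ly6Ghigh, beside 1310 and 2250 without it. No call of the 6 oxidase genes changed. Leaving out any library changed no count of called oxidase genes. With 2 of the 6 genes called between the subsets, the count was 4 with library totals in place of TMM and 4 with each of the 3 limma fits on FPKM (Cybb, Cyba, Ncf1 and Hvcn1), and 5 with no fold threshold. Against NL, the rises of Cybb in Ly6Ghigh and of Cyba in Ly6Glow were not called with library totals or with any of the 3 limma fits. With a fold threshold of 1 they were not called either (0.95 and 0.91). Of the pathway genes, 14 were called between the subsets, 5 with a threshold of 1 and 45 with none. In Ly6Glow against NL 51 were called, 28 with library totals and 26, 30 and 25 with limma on log2(FPKM + 1), log2(FPKM + 0.1) and the former with an FPKM of at least 1 in 3 libraries. Library totals shifted the median of all genes to -0.276, -0.552 and -0.857 (Ly6Glow against Ly6Ghigh, Ly6Ghigh against NL, Ly6Glow against NL) and the calls between the subsets to 570 higher and 3730 lower, in Ly6Ghigh against NL from 3712 and 5162 to 1742 and 6847, and in Ly6Glow against NL from 4049 and 5760 to 1330 and 7996. Relative to these medians the members kept their values (Cybb in Ly6Ghigh against NL 1.04 under both). This follows from the scaling alone, which shifts all genes of a comparison nearly alike. With limma on log2(FPKM + 0.1), relative to the median of that fit, Cybb was at 0.893 in Ly6Ghigh against NL. In Ly6Glow against NL it was at -0.754, beside -0.479 with TMM. Between the subsets, the sign of Ncf4 turned with DESeq2 (0.064), DESeq2's size factors (0.064) and upper-quartile factors (0.00096), and it ran from -0.034 to 0.015 over left-out libraries. That of Rac2 turned with library totals (-0.11), with limma on FPKM at either pseudocount or with the filter (-0.11 in each), and with scaling to neutrophil markers other than S100a8 and S100a9 (-0.45). Scaling to the 9 neutrophil markers, added after seeing the data, turned the rises over NL in Ly6Ghigh of Cybb (-1.01), Cyba (-0.66), Ncf4 (-0.47) and Rac2 (-0.21), and in Ly6Glow of Cyba (-1.16), Ncf1 (-0.22), Ncf4 (-0.58) and Rac2 (-0.19). Without S100a8 and S100a9 the values were -0.43 for Cybb and -0.075 for Cyba in Ly6Ghigh, and -1.05 for Cyba, -0.11 for Ncf1, -0.47 for Ncf4 and -0.083 for Rac2 in Ly6Glow. The cause of these changes was not tested. All 84 alternative values of the ratios, taken from counts or with a library left out, kept their direction. Leaving out a library could not turn it, because no ratio overlapped between groups.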
